A study of Solanum tuberosum with 6 samples.

Results

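The miRNAs that plants are known to raise when copper is short, miR397, miR398, miR408 and miR857, were followed in small RNA libraries of potato leaves. They were taken from the deposited miRNA table by name, as all mature sequences written with one of these 4 family names, length variants and both arms included. This gave 11 of the 910 sequences of the table, of which 4 belonged to miR408, 5 to miR398, 2 to miR397 and 0 to miR857. Another 2 rows, written -MIR in capitals for an unlisted hairpin arm, were left out. Potato plants (*Solanum tuberosum* cv. Shepody) were sprayed 21 days after emergence with a 1% (v/v) water solution of a commercial potassium phosphite product, KPhi, at 5 mL per plant (libraries T2, T4 and T6), or with water (C1, C3 and C5). Leaves were harvested 72 h later, at 24 days, and the 3 libraries of each condition are described as biological replicates. Only small RNAs were counted, so leaf identity could not be checked on marker genes, and fewer cells of a type cannot be told apart from less RNA per cell.

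Copper is needed by plastocyanin in photosynthesis, by copper-zinc superoxide dismutases that remove superoxide, and by laccases that oxidize phenolics such as lignin precursors. In *Arabidopsis*, low copper activates these miRNA genes through a transcription factor of the SPL group, and the miRNAs then lower the mRNAs of less essential copper proteins. There, miR398 is known to target copper-zinc superoxide dismutases and their copper chaperone, miR408 plantacyanin and laccases, and miR397 and miR857 laccases. In the same species miR398 is also known to fall under oxidative stress, when its dismutase targets are needed.

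The sequences that carried most of the reads are shown 5′ to 3′ as deposited, with the seed, bases 2 to 8, in capitals. The first pair shows how the potato copies of miR408 differ, and the other sequences are all 5 forms of miR398.
stu-miR408b-3p: tGCACTGCctcttccctggct
stu-miR408a-3p: tGCACAGCctcttccctggtt
stu-miR398b-3p: tTGTGTTCtcaggtcacccct
nta-miR398_2ss15GA21GT: tGTGTTCTcaggtcacccctt
stu-miR398a-3p_R-1: tATGTTCTcaggtcgcccct
nta-miR398: tGTGTTCTcaggtcgcccctg
nta-miR398_L+4R-1: aACATGTGttctcaggtcgcccct
The prefixes stu, sly and nta name the potato, tomato and tobacco miRNA that a sequence was matched to, and L and R give bases added or lost at its left and right end. Counted from the 5′ end of stu-miR408b-3p, stu-miR408a-3p differed by T6A, inside the seed, and by C20T. Counted from the 5′ end of stu-miR398b-3p, the other miR398 sequences fell into a pair of types. nta-miR398_2ss15GA21GT began 1 base later and had 0 differences over the 20 bases it shared with stu-miR398b-3p, so that it could be read as a shifted form of it despite its tobacco name. stu-miR398a-3p_R-1, nta-miR398 and nta-miR398_L+4R-1 all carried A16G, as the potato miR398a copy does. stu-miR398a-3p_R-1 also differed by G3A and nta-miR398_L+4R-1 by T1A. Sequences with A at this position are called b-type and those with G a-type below. Only nta-miR398_2ss15GA21GT and nta-miR398 shared a seed. Potato precursor genes for miR397, miR398a, miR398b, miR408a and miR408b are annotated in RefSeq (assembly SolTub_3.0) on sequences with no chromosome assigned, and no positions are given because the build used for the reads may differ.

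All 11 sequences together had 453 reads, 0.0178% of the reads of the miRNA table, so counting error was large. miR408 had 232 of these reads, miR398 216 and miR397 5. Some reads were fractions because the deposited table splits reads between similar sequences. The libraries held 4133739 to 8025802 mappable reads, of which 160906 (T4) to 612257 (C1) were in the miRNA table. T4 stood apart from the other libraries, with 33.5% of its raw reads longer than 32 nt, against 13.6% in C3 and 3.13% to 10.1% in the other libraries. The share of mappable reads in the miRNA table came to 4.56%, 3.66% and 9.35% in the KPhi libraries T2, T4 and T6, against 11.3%, 9.86% and 9.14% in C1, C3 and C5, so that T2 and T4 were both low and levels depend on which of these totals they are divided by.

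**Figure D1:**
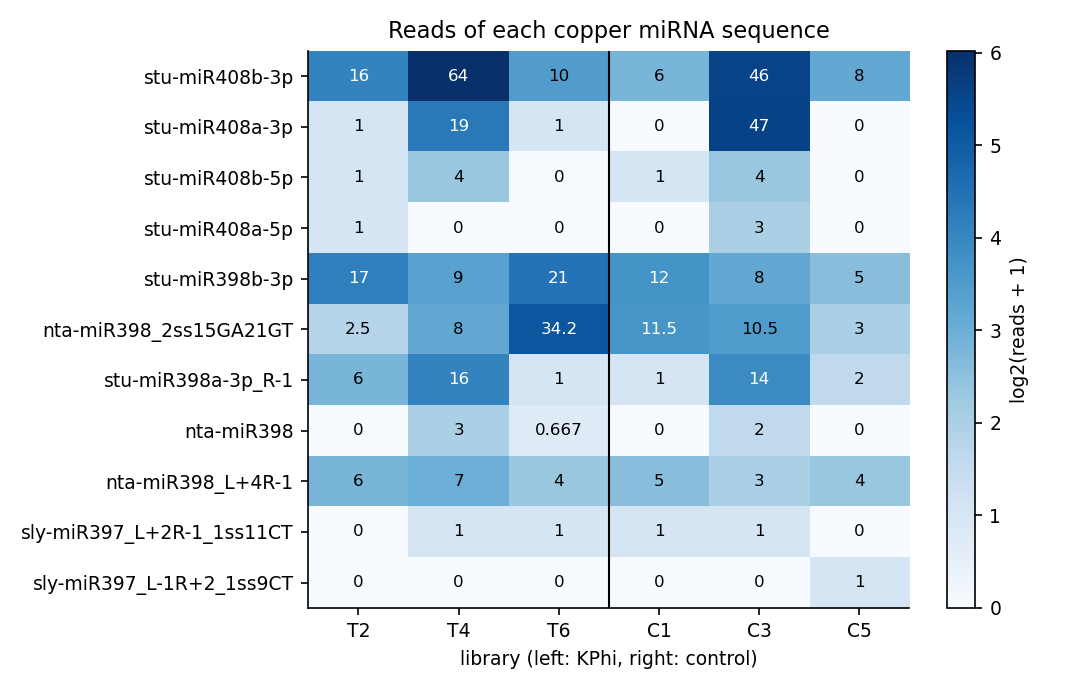
Reads of each of the 11 copper miRNA sequences (rows) in the 3 KPhi libraries (left) and the 3 control libraries (right), with color on a log2(reads + 1) scale and the reads printed in each cell. The darkest cells of the miR408 rows are in T4 and C3, with 64 and 46 reads of stu-miR408b-3p and 19 and 47 reads of stu-miR408a-3p.

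miR408 was abundant in T4 and C3 and scarce in the remaining libraries, whatever the treatment. stu-miR408b-3p had 16, 64 and 10 reads in T2, T4 and T6, against 6, 46 and 8 in C1, C3 and C5. Scaled to RPM, here reads per 1000000 mappable reads, the level was 1.99, 14.6 and 1.68 in the KPhi libraries, against 1.10, 9.69 and 1.94 in the control libraries. T4 and C3 were high in their own groups and the groups overlapped. Its other copy, stu-miR408a-3p, had 1, 19 and 1 reads in T2, T4 and T6, against 0, 47 and 0 in C1, C3 and C5, so that 66 of its 68 reads came from T4 and C3. At a floor of 3 reads per library, C3 had at least 17.9-fold more RPM of stu-miR408a-3p than C1 and at least 13.6-fold more than C5.

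Summed over both arms and copies, the miR408 level was 2.37, 19.8 and 1.85 RPM in T2, T4 and T6, against 1.29, 21.1 and 1.94 in C1, C3 and C5. The exact 95% Poisson intervals were 15.9 to 24.4 in T4 and 17.1 to 25.6 in C3, far above the intervals of the other libraries, which ended at 2.65 to 3.81. Reads are not counted by molecule here, so that intervals cover counting error only. T4 was 8.37-fold above T2 and 10.7-fold above T6, and C3 was 16.4-fold above C1 and 10.9-fold above C5. The libraries that were high therefore came 1 from each treatment, and the mean levels were 8.01 ± 10.2 in KPhi and 8.10 ± 11.2 in control libraries (SD over 3 libraries each, p = 0.9 by a two-sided exact permutation test). With 3 libraries against 3 this test cannot give a p below 0.1. T4 and C3 were also the libraries with the largest share of raw reads over 32 nt, 33.5% and 13.6%, and the part of this in the miR408 level was not tested. The library numbers alternate between control and KPhi, C3 and T4 carry consecutive numbers, and the labels do not say whether such libraries share a day or batch.

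**Figure D2:**
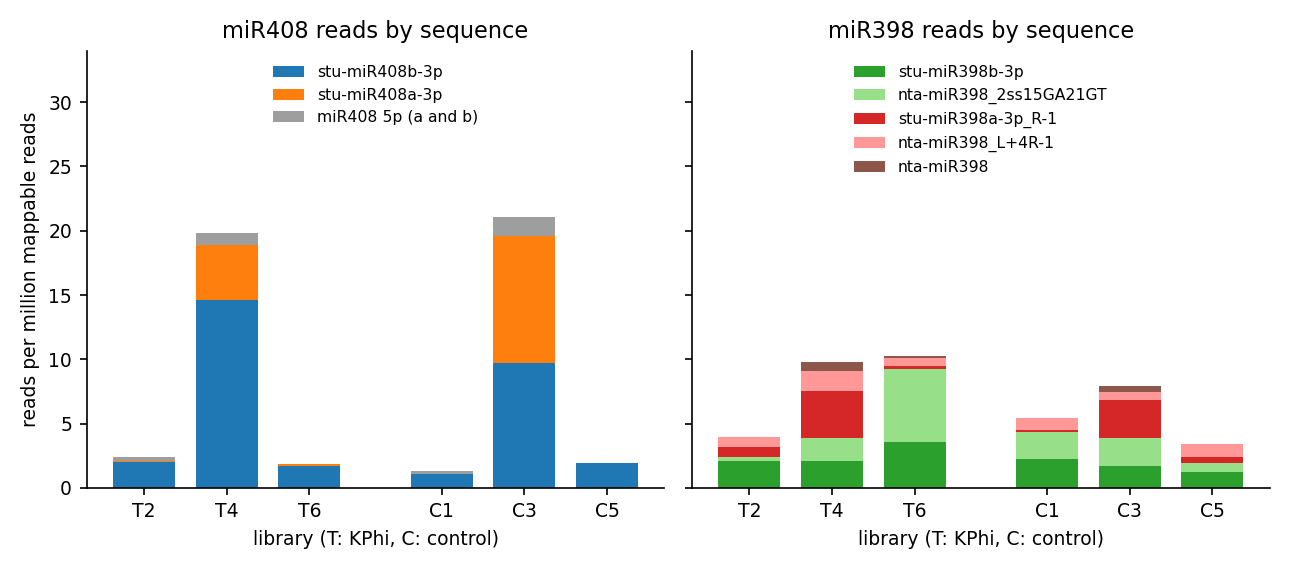
RPM (reads per 1000000 mappable reads) of miR408 (left panel) and miR398 (right panel) in each library, stacked by sequence, with KPhi libraries (T) left of control libraries (C). The miR408 bars of T4 and C3 reach 19.8 and 21.1 while the other libraries stay at or below 2.37, whereas the miR398 bars lie between 3.39 and 10.2.

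The balance of the miR408 copies differed between the high libraries. stu-miR408b-3p made up 77.1% of the 83 miR408 3p reads of T4 (Wilson 95% interval 67.0% to 84.8%), against 49.5% of the 93 in C3 (39.5% to 59.4%). In the other libraries it was nearly alone, with 94.1% in T2 and 90.9% in T6, against 100% in C1 and C5, but these shares rest on 6 to 17 reads. The mean share was 87.4% ± 9.04 in KPhi and 83.2% ± 29.2 in control libraries (SD over 3 libraries each, p = 1 by exact permutation). The passenger arm was rare. stu-miR408b-5p and stu-miR408a-5p together had 2, 4 and 0 reads in T2, T4 and T6, against 1, 7 and 0 in C1, C3 and C5. Over all libraries the 5p arm was 6.03% of the miR408 reads (Wilson 95% interval 3.63% to 9.87%).

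miR398 varied less, and its 2 types did not follow the same libraries. stu-miR398a-3p_R-1, the potato a-type sequence, had 6, 16 and 1 reads in T2, T4 and T6, against 1, 14 and 2 in C1, C3 and C5. It was thus highest in T4 and C3, as miR408 was. The 24 nt a-type sequence nta-miR398_L+4R-1 did not share this pattern, with 6, 7 and 4 reads in the KPhi libraries against 5, 3 and 4 in the control libraries. The study placed it in a group that matched known miRNAs but did not map to the potato genome. It made up 38.8% of the a-type reads of all libraries and is part of the a-type and miR398 totals. nta-miR398 had 0, 3 and 0.667 reads, against 0, 2 and 0, too few to compare. All a-type sequences together had 12, 26 and 5.67 reads in T2, T4 and T6, against 6, 19 and 6 in C1, C3 and C5. The Poisson interval of T4, 3.87 to 8.68 RPM, did not overlap those of T2 and T6, while that of C3, 2.41 to 6.25 RPM, overlapped that of C5, which ended at 3.16.

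The b-type sequences had another order. stu-miR398b-3p had 17, 9 and 21 reads in T2, T4 and T6, against 12, 8 and 5 in C1, C3 and C5. Its shifted form nta-miR398_2ss15GA21GT had 2.5, 8 and 34.2 reads, against 11.5, 10.5 and 3. T6 had the most reads of both forms, and T2 was low in the shifted form only. stu-miR398b-3p was accordingly 87.2% of the b-type reads in T2, 52.9% in T4 and 38.1% in T6, against 51.1%, 43.2% and 62.5% in C1, C3 and C5. The Wilson intervals of T2, 64.0% to 94.8%, and of T6, 26.5% to 51.4%, did not overlap. They were computed on rounded reads, and the shares depend on how reads were split, by a rule not stated. Together the b-type sequences were 61.9%, 39.5% and 90.7% of the miR398 reads in T2, T4 and T6, against 79.7%, 49.3% and 57.1% in C1, C3 and C5. The mean b-type share was 64.0% ± 25.6 in KPhi and 62.0% ± 15.7 in control libraries (SD over 3 libraries each, p = 0.9 by exact permutation), a difference of 2.00 percentage points that turned negative when T6, C3 or C5 was left out.

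Of the 11 sequences, stu-miR408b-3p, stu-miR398b-3p and nta-miR398_2ss15GA21GT had at least 10 reads in at least 3 libraries and entered the comparison of KPhi with control by edgeR's quasi-likelihood test across 165 sequences. With adjustment it called 0% of them. Without adjustment 16 (9.70%) had p under 0.05, of which 9 (5.45%) were higher and 7 (4.24%) lower in KPhi. All 3 of these members had log2 fold changes above 0, as did 72 (43.6%) of the sequences. Levels in this test are CPM scaled by TMM, which sets the bulk of the miRNA sequences equal between libraries. The 8 other members were below the read minimum and have no test there. In a fit without that minimum none of the 11 passed (edgeR adjusted p = 0.743 to 0.989), and stu-miR408a-3p, stu-miR408a-5p and sly-miR397_L-1R+2_1ss9CT had log2 fold changes below 0, at -1.03, -1.24 and -1.84.

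stu-miR398b-3p came closest to the threshold. It is also in a list the study chose on these same libraries, so that its direction is not independent evidence. It had 50.7, 30.2 and 40.4 normalized CPM in T2, T4 and T6, against 20.7, 22.9 and 14.8 in C1, C3 and C5. Every KPhi library lay above every control library on this scale, as for 13 (7.88%) of the sequences tested. The log2 fold change was 1.04 (standard error 0.47), with an unadjusted p = 0.0513 and an adjusted p = 0.470 from edgeR, so it did not pass. The separation depended on the denominator. In RPM the levels were 2.12, 2.05 and 3.53 in T2, T4 and T6, against 2.21, 1.69 and 1.21 in C1, C3 and C5, so that C1 lay above T2 and T4. The means on that scale were 2.57 ± 0.837 in KPhi and 1.70 ± 0.499 in control libraries (SD over 3 libraries each, p = 0.3 by exact permutation), and the fitted log2 fold change with mappable reads as library size was 0.58 (adjusted p = 0.696 from edgeR). The median log2 fold change of all 165 sequences moved with the scale too, being -0.13 by TMM, 0.35 by reads of the miRNA table and -0.49 by mappable reads.

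**Figure D3:**
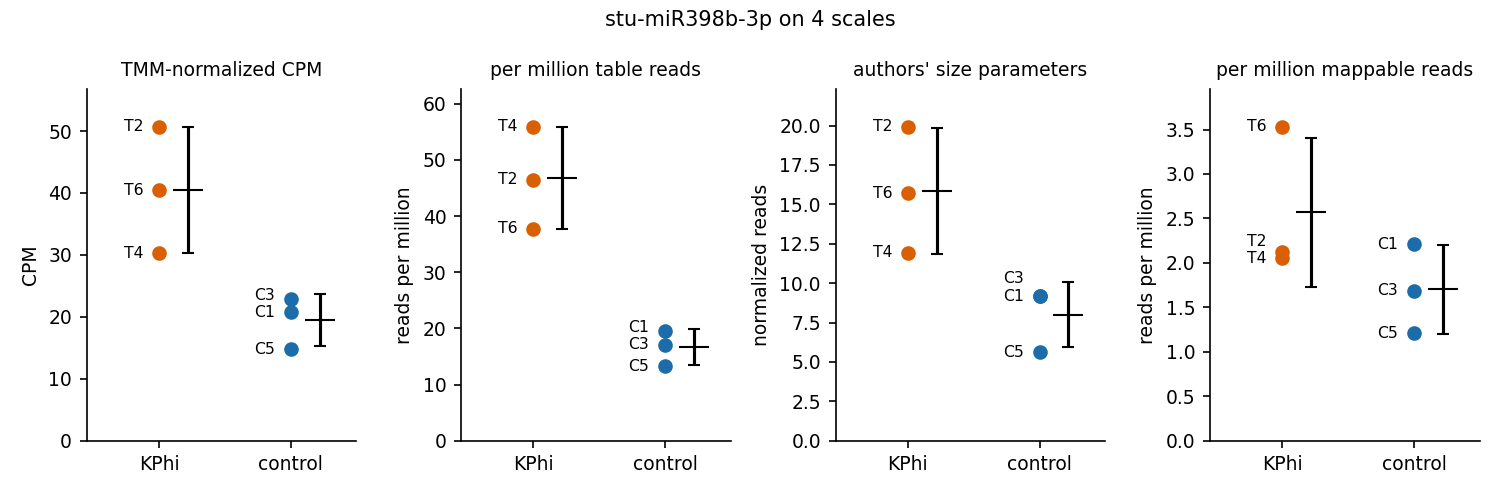
Level of stu-miR398b-3p in each library on 4 scales, with KPhi libraries left of control libraries in each panel and black marks for the mean and SD of the 3 libraries. On the first 3 scales every KPhi point is above every control point, whereas per 1000000 mappable reads C1 (2.21) is above T2 (2.12) and T4 (2.05). How many of all sequences separate was counted on the TMM scale only.

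The shifted form nta-miR398_2ss15GA21GT, after rounding to whole reads, had 5.97, 26.9 and 65.5 normalized CPM in T2, T4 and T6, against 20.7, 28.7 and 8.87 in C1, C3 and C5. The groups overlapped, with T2 the lowest of all libraries and T6 the highest. The log2 fold change was 0.79 (standard error 0.73, adjusted p = 0.647 from edgeR). Summed over unrounded reads, the b-type forms had 58.2, 57.1 and 106 normalized CPM in T2, T4 and T6, against 40.6, 53.0 and 23.7 in C1, C3 and C5, where T4 and C3 were close. In RPM the b-type groups overlapped. stu-miR408b-3p had 47.7, 215 and 19.3 normalized CPM in the KPhi libraries against 10.4, 132 and 23.7 in the control libraries, with a log2 fold change of 0.76 ± 1.01 (standard error, edgeR adjusted p = 0.746). Its direction rested on the high libraries, since the log2 fold change was -0.54 without T4 and 2.58 without C3.

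The family totals do not depend on how reads were split between the length variants of a family. The miR398 total was still a fraction in some libraries, such as 31.5 reads in T2, so it may depend on splits with other rows. Of the 32 families that passed the same read minimum, edgeR called 0% after adjustment. Without adjustment 3 (9.38%) had p under 0.05, of which 1 (3.12%) was higher and 2 (6.25%) lower in KPhi, and neither miR398 nor miR408 was among them. Both had log2 fold changes above 0, as did 14 (43.8%) of the families. miR398 had 95.4, 145 and 117 normalized CPM in T2, T4 and T6, against 51.8, 109 and 41.4 in C1, C3 and C5. Only C3 among the controls reached into the KPhi range, so that the groups overlapped, whereas 1 family (3.12%) had every KPhi library above every control library. The log2 fold change was 0.82 (standard error 0.47, adjusted p = 0.492 from edgeR). Without C3 it was 1.51 with an adjusted p = 0.0381 from edgeR, past the threshold, together with miR384 (log2 fold change -0.94). C3 carried 14 of the reads of stu-miR398a-3p_R-1, against 1 in C1 and 2 in C5. With mappable reads as library size the miR398 log2 fold change was 0.50 (adjusted p = 0.690 from edgeR), and the level was 7.98 ± 3.52 RPM in KPhi and 5.57 ± 2.26 in control libraries (SD over 3 libraries each, p = 0.3 by exact permutation).

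miR408 as a total had 56.7, 292 and 21.2 normalized CPM in T2, T4 and T6, against 12.1, 287 and 23.7 in C1, C3 and C5. T4 and C3 were thus nearly equal on this scale too. The log2 fold change was 0.20 (standard error 1.33, adjusted p = 0.916 from edgeR), -1.29 without T4 and 2.89 without C3, none past the threshold. Over the 14 shares and levels compared by exact permutation tests, the smallest p was 0.3, and every adjusted p was 1. These tests used mappable reads as denominator of the levels. With reads of the miRNA table as denominator, miR398 had 86.1, 267 and 109 reads per 1000000 in T2, T4 and T6, against 48.2, 80.1 and 37.1 in C1, C3 and C5. The groups did not overlap on that scale, a difference of 99.1 with p = 0.1 by exact permutation, the smallest this test can give. How many other families separate on that scale was not counted. The median log2 fold change of all sequences was 0.35 with these reads as library size, against -0.13 by TMM.

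**Figure D4:**
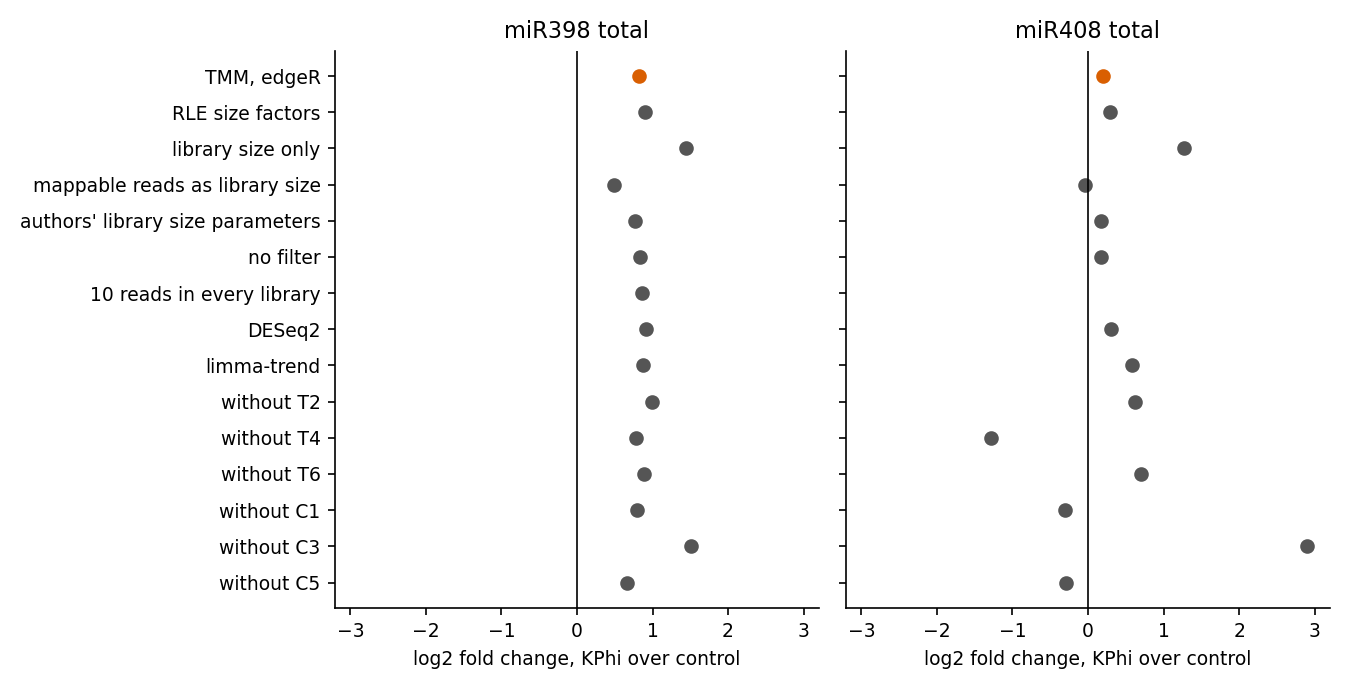
Log2 fold change of KPhi over control for the miR398 total (left) and the miR408 total (right). The edgeR fit with TMM is orange, and alternatives of scaling, filter, tool and left-out library are gray. Fits with other row sets are not drawn. All miR398 points lie above 0, between 0.50 and 1.51, while miR408 ranges between -1.29 without T4 and 2.89 without C3, and it has no point at 10 reads in every library because it did not pass that filter.

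Among all sequences tested, stu-miR408b-3p was one of the least alike between replicates and stu-miR398b-3p one of the most alike on the TMM scale. stu-miR398b-3p had only 5 to 21 reads per library, so its rank cannot show how alike the replicates were beyond counting error. The SD within groups of log2(CPM + 2) was 1.73 for stu-miR408b-3p, rank 2 of 165 from the top, 1.22 for nta-miR398_2ss15GA21GT, rank 20, and 0.33 for stu-miR398b-3p, rank 151, around a median of 0.61. The miR408 total had an SD of 2.09, the largest of the 32 families, whose median was 0.57. T4 and C3 were the highest libraries of 16 (9.70%) of the 165 sequences, stu-miR408b-3p included. How often other pairs of libraries were highest was not counted. The count also leaves out the size of the difference, so it does not show whether other sequences share the miR408 pattern.

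**Figure D5:**
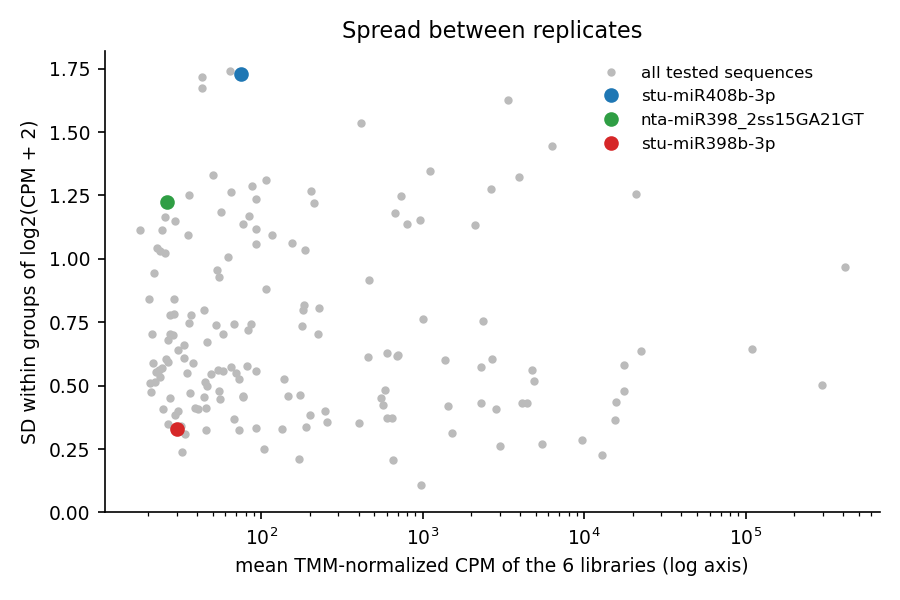
SD within groups of log2(CPM + 2) against the mean TMM-normalized CPM (log axis) for the 165 sequences tested (gray), with the tested copper miRNAs in color. stu-miR408b-3p lies near the top at 1.73 and stu-miR398b-3p near the bottom at 0.33.

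Among tested sequences outside miR408, those closest in profile to its total over the 6 libraries were all predicted new ones with no known role. Sequences below the read minimum were not compared, among them stu-miR398a-3p_R-1, which was also highest in T4 and C3. Likeness was the root mean square difference of centered log2(CPM + 2), of which smaller values are closer. PC-3p-277_4703 came first at 0.98, followed by PC-5p-18345_117, PC-5p-3568_561, PC-3p-28080_73 and PC-3p-4776_430 at 1.05 to 1.15, where the median of 164 sequences was 1.90. A flat profile would be at 1.74 from the miR408 total, so even the closest of those compared were alike only in part. PC-3p-4776_430 had 185 normalized CPM in T2 and 135 in C3, so it did not share the high C3. PC-3p-277_4703 had 4581, 5111 and 1049 normalized CPM in T2, T4 and T6, against 1294, 8640 and 3127 in C1, C3 and C5, so it shared the high C3 but was nearly as high in T2 as in T4. The profile of stu-miR398b-3p was matched most closely by sly-miR1919a_R+1 at 0.19, followed by stu-miR1919-3p, sly-miR167b-5p, PC-3p-3641_551 and PC-5p-1156_1452 at 0.36 to 0.41, where the median of 163 was 0.89. A flat profile would be at 0.56 from stu-miR398b-3p. With only 5 to 21 reads of stu-miR398b-3p per library, counting error limits this ranking. sly-miR1919a_R+1 had 137, 87.4 and 121 normalized CPM in T2, T4 and T6, against 86.3, 68.8 and 53.2 in C1, C3 and C5.

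miR397, whose known targets are laccases, was at the limit of detection. sly-miR397_L+2R-1_1ss11CT had 0, 1 and 1 reads in T2, T4 and T6, against 1, 1 and 0 in C1, C3 and C5, and sly-miR397_L-1R+2_1ss9CT had 1 read, in C5. They shared 18 bases without a difference, starting 3 bases apart. Without the read minimum, the log2 fold changes of these sequences were 0.13 (standard error 1.66) and -1.84 (standard error 2.16), so that no difference was detectable at this depth. In a library with 0 reads a floor of 3 reads would allow 0.374 RPM in T2 and 0.726 in C5. Other nutrient miRNAs were also scarce. The families miR395, for sulfate, and miR399, miR827 and miR2111, for phosphate, had 10 sequences with 50.9 reads in all, from 3 of these families, and 0 of them reached the read minimum.

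The base that separates the miR398 types faces different letters in the sites that the study predicted for stu-miR398b-3p. These are shown 5′ to 3′ from the target lists, with bases that do not form a Watson-Crick pair with stu-miR398b-3p in capitals.
Copper-zinc superoxide dismutase (PGSC0003DMT400027651): aAgggugaccugagaUcacaU
RIN4 family protein (PGSC0003DMT400012011): aggggCgaccugagaacacaU
The superoxide dismutase site, in the mRNA of the enzyme that miR398 is known for, paired with stu-miR398b-3p at 18 of 21 positions. Its base opposite position 16 is U, which pairs with the A of the b-type and would form a wobble with the G of the a-type. The site in the mRNA of a RIN4 family protein, a family known as a regulator of plant immunity, paired at 19 of 21 positions. It has C opposite position 16, a mismatch with the b-type. With only that base of stu-miR398b-3p changed to G, the number of pairs would be 20. That is not the sequence of an a-type member. stu-miR398a-3p_R-1 also carries G3A, where this site has C, and the pairs of the a-type members were not counted. Of the 9 transcripts listed, 6 had U and 3 had C at this place. Several transcripts share a site, and among the 6 different site sequences 5 had U and 1 had C, that of the RIN4 transcripts. No mRNA was measured in these libraries, so that these are matches of letters only.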

How the data were processed

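Small RNA of 3 KPhi and 3 control leaf libraries was compared. The authors used a TruSeq small RNA kit and single-end HiSeq sequencing, followed by ACGT101-miR, whose version is not given in the sources used here. It removed reads without 3′ adapter, junk, structural RNAs and repeats, and sequences were mapped by BLAST to miRBase precursors and to the potato genome. Reads of each step were deposited as whole-number counts per library. The miRNA table was deposited with values used here as estimated counts (reads per sequence, split in 306 of 910 rows by a rule not stated). The authors' deposited normalized values (signal, reads over 1 size parameter per library) served only for their size parameters. The authors' own comparison, p-values and means per sequence, was not used.

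Members and lists were chosen with earlier results of these data known. Named sequences were the 11 members, their totals and the 5 tested profiles closest to miR408 and to stu-miR398b-3p. Families called only under 1 alternative were named after their values were seen. Reads were rounded to whole numbers. Sequences, and families summed over rows written -miR, entered edgeR 4.0.16 where 3 or more libraries had 10 or more reads (quasi-likelihood, TMM factors 0.916, 1.85 and 0.934 for T2, T4 and T6 and 0.947, 0.746 and 0.895 for C1, C3 and C5, Benjamini-Hochberg, threshold 0.05). Families used the sizes of the sequence fit. Standard errors given with edgeR fold changes are the absolute log2 fold change over the square root of its F statistic, so they are approximate. For single levels and shares, two-sided exact permutation tests were used. The fit was tested on simulated data. Alternatives were RLE factors, the authors' size parameters, mappable reads, unscaled library size, other filters, DESeq2 1.42.0, limma-trend (limma 3.58.1, prior count 2), other row sets and leaving out each library. Scripts ran in R 4.3.3 and Python 3.11.15 (scipy 1.17.1, numpy 2.4.6, matplotlib 3.10.9, pandas 2.3.3). Sequences are those of the deposited table, and target sites those of the study's prediction list.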

Additional observations from a re-analysis of the deposited data

How the results depend on the processing

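stu-miR398b-3p stayed above 0 in each of the 10 alternatives that gave it a value, at 0.58 to 1.43 (adjusted p = 0.266 to 0.743), and fell below the read minimum without T2, T6 or C1 and at 10 reads in every library. nta-miR398_2ss15GA21GT was at 0.35 to 1.26 in 10 alternatives. The miR398 total was at 0.50 to 1.51 in 16 alternatives. With 1 library left out it was at 0.66 to 1.51, and it passed the threshold only without C3 (adjusted p = 0.0381). The difference of the miR398 level, 2.41 RPM, was 1.29 to 4.44 with 1 library left out and 99.1 with reads of the miRNA table as denominator. The miR408 total was -0.036 with mappable reads as library size and -1.29 to 2.89 with 1 library left out, below 0 without T4, C1 or C5, and stu-miR408b-3p was -0.54 to 2.58. The difference of the miR408 level, -0.086 RPM, was -5.99 to 6.40 with 1 library left out and 122 with reads of the miRNA table as denominator. That of the b-type share was -11.3 to 14.2 percentage points and that of the miR408b share -12.6 to 12.6 with 1 library left out, and the miR408b share reversed only without C3. The cause was not tested.

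With no filter, edgeR called 4 sequences (sly-miR396a-5p, nta-miR396a_L-5_1ss6CA, PC-5p-14147_152 and PC-3p-10278_209) and 1 family (miR5300), 46 sequences and 8 families at an unadjusted p under 0.05, and 0 of the copper miRNAs. Calls of families were 0 to 2 with 1 library left out, miR398 and miR384 without C3. At an unadjusted p under 0.05 there were 27 sequences by DESeq2, 4 without C1 and 9 without T2. No paired analysis was run. Each library carries a number of its own, so which KPhi and control libraries belong together, if any, is unknown. Neighbors in number could be pairs, among them C3 and T4, the libraries high in miR408. All tests here treated the libraries as unpaired, so they do not take such pairs into account. With 5 to 64 reads per library for stu-miR408b-3p and stu-miR398b-3p, counting error limits every value.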
